A study of Mus musculus with 18 samples.

Results

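DARPP-32, the ARPP phosphoproteins and the subunits of protein kinase A (PKA) were followed across the striatum of 18 mice. The 10 genes were taken by name from the 55421 genes counted: Ppp1r1b (DARPP-32), Ppp1r1a (inhibitor-1), Arpp19, Ensa and Arpp21, the PKA catalytic subunits Prkaca and Prkacb, and the PKA regulatory subunits Prkar1b, Prkar2a and Prkar2b. The rule that picks them uses gene names and no measured value, although it was written with earlier results of these data known. All 10 were among the 20914 genes that had enough counts to be tested. Ppp1r1b and Arpp19 were singled out by the study for their change in these mice, so their direction here is not independent evidence.

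The mice were 5 WT, 5 zQ175, 3 CK2α’(±) and 5 zQ175:CK2α’(±), all 12 to 14 months old, with a library of total RNA from each. zQ175 mice model Huntington’s disease and were heterozygous for a knock-in allele in which exon 1 of the mouse huntingtin gene is replaced by a human and mouse chimeric exon with an expanded CAG repeat, on a C57BL/6J background. CK2α’(±) mice carry a single functional allele of Csnk2a2, which encodes a catalytic subunit of the kinase CK2, in every cell of the body. zQ175:CK2α’(±) mice carry both changes, and WT mice neither. The study asked how the loss of a CK2α’ allele alters the striatum of zQ175 mice.

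Total counts ranged from 13612381 to 22702547 per library. Csnk2a2 followed the genotype labels, at 14.7 to 19.9 CPM (read counts normalized for library size) in the 8 mice with a single allele and 29.4 to 37.5 CPM in the other 10. Defining markers of striatal projection neurons were present in every library, with a summed level of 1098 to 4264 CPM over 10 genes. The libraries zQ175 replicate 1 and zQ175 replicate 5 stood apart in markers of neurons from other regions. The first had 621 CPM of 4 thalamic neuron markers, against 20.9 to 192 CPM in every other library, and the second had 326 CPM of 6 cortical excitatory neuron markers, against 23.3 to 95.4 CPM in every other library. Other libraries stood apart in choroid plexus markers. These were at 2065 CPM in WT replicate 1, 1715 CPM in WT replicate 3, 970 CPM in CK2α’(±) replicate 1 and 3064 CPM in zQ175:CK2α’(±) replicate 2. Every remaining library had 11.3 to 21.5 CPM of them. Sex is not given for each library, and no sequencing batch is named. The ratio of females to males in the study’s methods is unbalanced, with mostly females among the WT and zQ175:CK2α’(±) mice and mostly males among the zQ175 and CK2α’(±) mice.

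Most neurons of the striatum are GABAergic projection neurons that receive dopamine. Dopamine D1 receptors and the adenosine receptor encoded by Adora2a raise cyclic AMP in them and D2 receptors lower it, and cyclic AMP frees the PKA catalytic subunits from the regulatory subunits. Free PKA phosphorylates DARPP-32 on a threonine, which turns it into an inhibitor of protein phosphatase 1. DARPP-32 and ARPP-21 are classic markers of these neurons, and DARPP-32 also carries sites for CK2. Inhibitor-1 acts on the same phosphatase by the same mechanism. ARPP-19 and its paralog ENSA inhibit protein phosphatase 2A of the B55 class once the kinase MASTL has phosphorylated a shared serine. ARPP-21 is an RNA-binding and calmodulin-regulating protein, and its gene also hosts a microRNA.

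The regulated sites of these proteins show how closely the family members resemble each other. The coding windows that follow were read 5′ to 3′ on the coding strand from the reference transcripts (GRCm38) and hold 45 bases each. They are shown because the sites define what each protein does, and because near-identical stretches could let reads of paralogs be confused. Capitals mark a single codon. In Ppp1r1b and Ppp1r1a it is the threonine that PKA phosphorylates, and in Arpp19 and Ensa the serine that MASTL phosphorylates. In Prkaca and Prkacb it is the threonine of the activation loop. In the regulatory subunits it is the residue that fills the catalytic cleft, which is a serine in type II subunits and a glycine in Prkar1b.
Ppp1r1b: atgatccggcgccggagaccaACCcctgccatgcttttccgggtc
Ppp1r1a: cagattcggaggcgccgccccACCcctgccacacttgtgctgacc
Arpp19: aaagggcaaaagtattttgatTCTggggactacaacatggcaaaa
Ensa: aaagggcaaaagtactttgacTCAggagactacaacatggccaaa
Prkaca: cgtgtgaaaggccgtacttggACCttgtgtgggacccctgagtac
Prkacb: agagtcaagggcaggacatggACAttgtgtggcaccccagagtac
Prkar1b: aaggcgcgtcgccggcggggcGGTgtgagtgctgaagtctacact
Prkar2a: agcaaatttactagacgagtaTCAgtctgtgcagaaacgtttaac
Prkar2b: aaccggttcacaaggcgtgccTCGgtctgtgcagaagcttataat

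These windows lie in the coding sequence of chr11:98349172-98350610 for Ppp1r1b, chr9:75052350-75056673 for Arpp19, chr3:95626869-95628579 for Ensa and chr9:108714284-108716882 for Prkar2a, where they cross an intron on the plus strand. Prkaca lies at chr8:83990666-83990710 on the plus strand, and Prkacb at chr3:146746627-146746671 and Prkar1b at chr5:139108514-139108558 on the minus strand, each within a single exon. The windows of Ppp1r1a, at chr15:103534369-103537797, and Prkar2b, at chr12:31993764-32038646, cross an intron on the minus strand. Arpp19 and Ensa differed at 5 of the 45 bases, Prkaca and Prkacb at 10, Prkar2a and Prkar2b at 15, and Ppp1r1b and Ppp1r1a at 16. Over the whole coding sequence, identity was 55.16% between Ppp1r1b and Ppp1r1a, 74.36% between Arpp19 and Ensa, 79.92% between Prkaca and Prkacb and 70.24% between Prkar2a and Prkar2b. No stretch of 50 bases, the length of a read, was shared between any of the 10 genes. Part of Ppp1r1b overlaps 1700003D09Rik and part of Arpp21 overlaps 2900079G21Rik, both on the opposite strand. Part of Prkar1b overlaps Gm15672 on the same strand. These neighbours had mean counts of 93.1, 69.3 and 45.3 per library, against 13940, 10008 and 3555 for the members. The strand setting of the counts is not given in the sources used here, so reads of the overlapping parts cannot be told apart. For Prkar1b and Gm15672 no strand setting would separate them.

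Levels of different genes are compared as CPM per kilobase of exon. In WT mice Ppp1r1b was the highest, at 321 ± 86.9 CPM per kilobase (SD, n = 5), and its 5 mice did not overlap with any other member. Arpp19 followed at 54 ± 20.2 and Prkar1b at 52 ± 6.99 CPM per kilobase, and these neighbours overlapped. Prkaca at 41 ± 2.39, Prkacb at 39.5 ± 3.17, Arpp21 at 35.7 ± 11.5 and Ppp1r1a at 31.7 ± 7.27 CPM per kilobase formed a run in which each overlapped the next. Ppp1r1a also overlapped with Prkar2b at 22.8 ± 5.92, and Prkar2b with Ensa at 22.2 ± 2.03 CPM per kilobase, and Prkar2a, at 6.4 ± 0.438, lay below every other member. In zQ175 mice the order changed at the top. Ppp1r1b stayed first at 178 ± 49 CPM per kilobase, whereas Arpp19, at 32.1 ± 6.09, lay below Prkar1b (54.4 ± 5.48), Prkaca (41 ± 5.37) and Prkacb (40.7 ± 3.09).

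The members fell into genes that varied widely between mice and genes that did not. Over all 18 mice the highest CPM exceeded the lowest 5.33-fold for Ppp1r1b, 4.04-fold for Arpp19, 3.15-fold for both Ppp1r1a and Arpp21, 2.4-fold for Prkar2b and 2.17-fold for Prkar2a. For Prkar1b it was 1.56-fold, for Prkaca 1.55-fold, for Ensa 1.36-fold and for Prkacb 1.34-fold. Every member had at least 395 counts in each library.

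**Figure D1:**
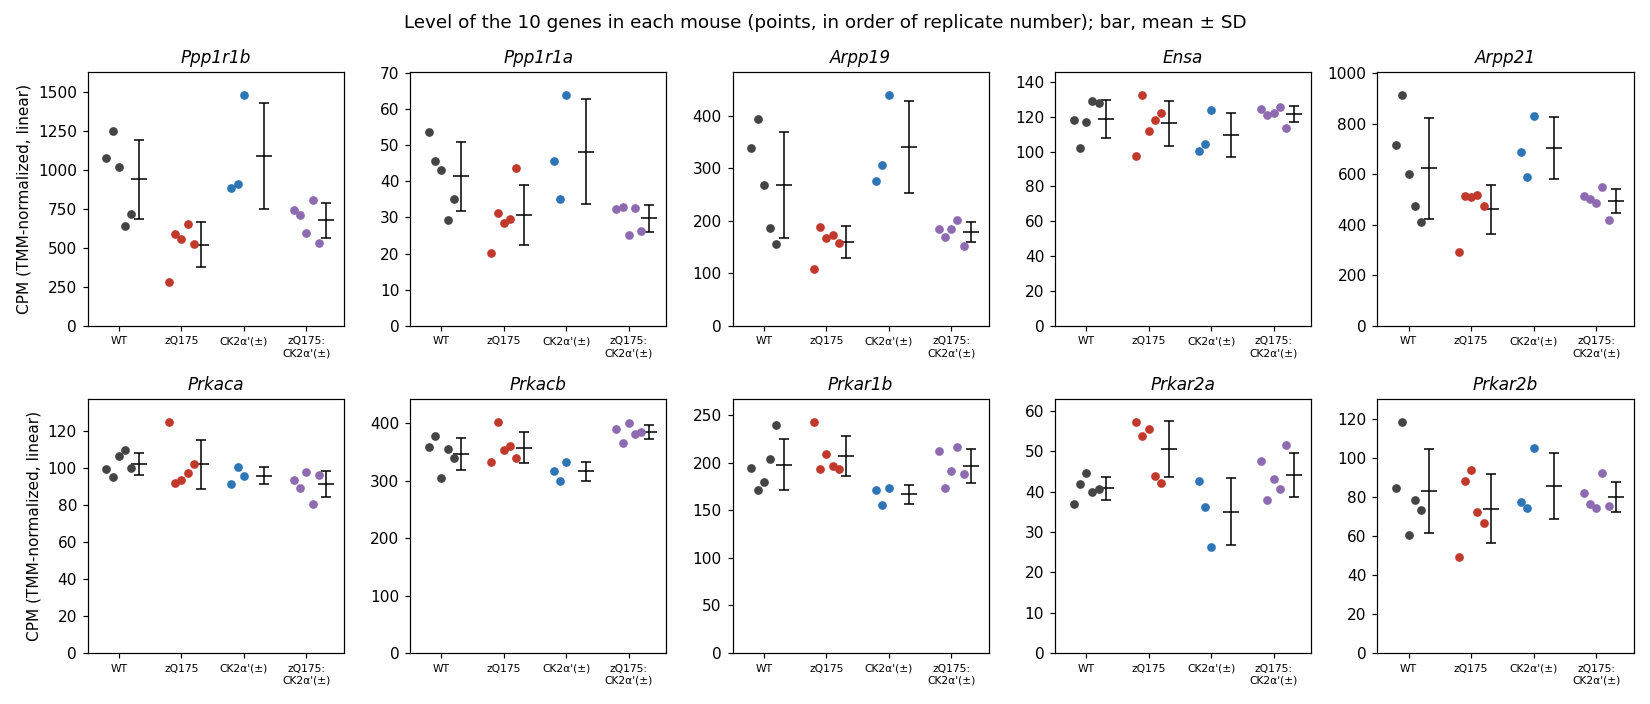
CPM of each gene on a linear axis (y), with a point for each mouse in its genotype group (x) in order of replicate number and a bar for the mean ± SD. Ppp1r1b, Ppp1r1a, Arpp19 and Arpp21 had lower means in both zQ175 groups than in the groups without the knock-in, with mice of WT and zQ175 overlapping, whereas Ensa and Prkaca lay in similar ranges in all groups.

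The first comparison asked what the zQ175 allele changed in mice with both CK2α’ alleles. Among the phosphatase inhibitors, DARPP-32 mRNA fell in zQ175 mice and inhibitor-1 and ARPP-19 had lower means that missed the threshold, while ENSA stayed within its spread. The threshold throughout was an FDR (Benjamini-Hochberg adjusted p) of 0.1 over all genes in edgeR’s quasi-likelihood test. Of the 10 members, 1 passed, Ppp1r1b, where 1.1% of all 20914 genes passed. In DESeq2 it was 2, Ppp1r1b and Arpp19, where 5.26% of the genes with an adjusted p passed. At an unadjusted p under 0.05 there were 5 members, where 13.9% of all genes were below it. No member separated the groups without overlap, which 2.44% of all genes did.

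Ppp1r1b was at 1076, 1248, 1019, 639 and 719 CPM in WT replicates 1 to 5. In zQ175 replicates 1 to 5 it was at 278, 592, 557, 651 and 523 CPM. WT replicates 4 and 5 were the low WT mice, zQ175 replicate 1 was by far the lowest mouse, and the groups overlapped only in that zQ175 replicate 4 lay above WT replicate 4. The mean was 940.2 ± 255 CPM (SD, n = 5) in WT and 520.2 ± 143 CPM (SD, n = 5) in zQ175, a log2 fold change of -0.85 (SE 0.207, edgeR FDR = 0.0765), or 0.553-fold. Without zQ175 replicate 1 the log2 fold change was -0.69 (edgeR FDR = 0.111), and the call was also lost without WT replicate 1 (FDR = 0.158), WT replicate 3 (FDR = 0.179), zQ175 replicate 3 (FDR = 0.109) or zQ175 replicate 5 (FDR = 0.128), all by edgeR. Without both zQ175 replicates 1 and 5 it was -0.65 (edgeR FDR = 0.270), and in that fit 0 genes passed in this comparison at all. With the test fitted to the WT and zQ175 mice alone the call was lost as well (edgeR FDR = 0.172), and 0 genes passed in that fit. The direction was the same in each of these fits.

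Arpp19 was at 338, 393, 267, 185 and 155 CPM in the WT mice, in order of replicate. The zQ175 mice were at 109, 188, 168, 174 and 157 CPM. WT replicates 4 and 5 lay inside the zQ175 range, and the other WT mice above all of it. The log2 fold change was -0.75 (SE 0.2), and the edgeR FDR of 0.102 just missed the threshold that DESeq2 met (FDR = 0.0425). With WT replicate 5 left out the edgeR FDR was 0.0564. Its paralog Ensa showed no such shift, at 118, 102, 117, 129 and 128 CPM in WT and 97.5, 132, 111, 118 and 122 CPM in zQ175 mice. Both groups of Ensa covered a similar range, and the log2 fold change was -0.03 with a 95% interval from -0.21 to 0.15.

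Ppp1r1a, the DARPP-32 relative found in many neurons, was at 53.7, 45.6, 43.2, 29.2 and 35.2 CPM in WT and at 20.2, 31.3, 28.5, 29.5 and 43.6 CPM in zQ175 mice. The zQ175 mouse with the highest value was replicate 5, the library with the most cortical marker RNA. Its log2 fold change of -0.43 (SE 0.185, edgeR FDR = 0.304) did not pass. Arpp21 was at 715, 914, 600.5, 474 and 411 CPM in WT and at 290.4, 514, 511, 517 and 474 CPM in zQ175 mice. WT replicate 4 lay below 3 of the 5 zQ175 mice, and WT replicate 5 below all of them except replicate 1. The log2 fold change of -0.43 (SE 0.178, edgeR FDR = 0.280) did not pass. Without WT replicate 2 it was -0.27.

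None of the 5 PKA subunits passed, and their fold changes lay on both sides of 0. Prkaca and Prkacb, which encode the Cα and Cβ catalytic subunits, had log2 fold changes near 0 between zQ175 and WT mice, of -0.0024 (95% interval -0.17 to 0.17) and 0.04 (95% interval -0.10 to 0.19). Prkaca averaged 102 ± 5.94 CPM in WT and 102 ± 13.4 CPM in zQ175 mice (SD, n = 5 each). Its highest value of all mice, 125 CPM, belonged to zQ175 replicate 1, the library with the lowest Ppp1r1b.

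Among the regulatory subunits, Prkar2a, which encodes RIIα, was the member with the largest positive fold change. It was at 37, 41.9, 44.7, 39.9 and 40.7 CPM in WT mice and at 57.2, 53.9, 55.5, 43.9 and 42.2 CPM in zQ175 mice. Replicates 1 to 3 of zQ175 lay above every WT mouse and replicates 4 and 5 within the WT range. The log2 fold change was 0.31 (SE 0.119, edgeR FDR = 0.247) and did not pass. Prkar2b, which encodes RIIβ, the regulatory subunit that prevails in striatal neurons, had a log2 fold change of -0.17 (SE 0.163, edgeR FDR = 0.698). With a single library left out it ran from -0.28 without zQ175 replicate 3 to -0.02 without WT replicate 2. Its spread was wide in both groups, at 60.7 to 119 CPM in WT and 49.5 to 94.1 CPM in zQ175 mice. Prkar1b, which encodes the neuronal subunit RIβ, was at 171 to 239.8 CPM in WT and 194 to 243 CPM in zQ175 mice, with a log2 fold change of 0.06 (SE 0.0916, edgeR FDR = 0.807) that ran from 0.00063 without zQ175 replicate 1 to 0.14 without WT replicate 5.

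Over the 10 members the median log2 fold change was -0.10 in this comparison, with 3 higher and 7 lower, beside a median of 0.0042 over all genes tested. In bulk tissue, fewer projection neurons, a different share of other tissue and less of a transcript in each neuron cannot be told apart. The paper reports that neuron counts by cresyl violet and striatum volume did not differ significantly between WT and zQ175 mice. The summed level of the 10 projection neuron markers was 1903 to 4264 CPM in WT and 1098 to 2211 CPM in zQ175 mice, and all 10 of these markers had negative fold changes (median log2 fold change -0.64), 2 of them passing. The cortical markers were higher, at 23.3 to 57.5 CPM in WT and 60.9 to 326 CPM in zQ175 mice without overlap, with 6 of 6 genes having positive fold changes and 1 passing. Thalamic markers were at 30.1 to 149.6 CPM in WT and 43.7 to 621 CPM in zQ175 mice. Oligodendrocyte markers were at 5065 to 7088 CPM in WT and 3281 to 4992 CPM in zQ175 mice, again without overlap. Interneuron markers were at 175 to 231 CPM against 88.1 to 176 CPM, hippocampal granule neuron markers at 45.6 to 59.1 CPM against 47.1 to 113 CPM, and choroid plexus markers at 15.1 to 2065 CPM against 11.3 to 21.5 CPM. The choroid plexus markers were at 2065 and 1715 CPM in WT replicates 1 and 3 and at 21.5 CPM or less in the other WT mice. All of the cortical and thalamic markers were detected in all 5 zQ175 libraries, and the part of these differences in the members’ values was not tested.

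**Figure D2:**
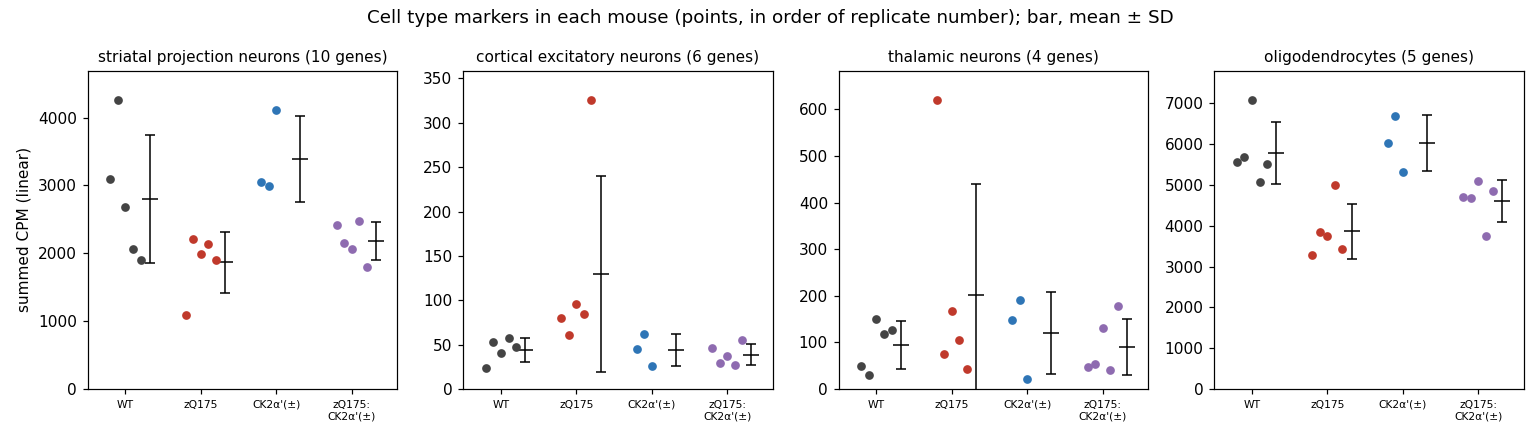
Summed CPM on a linear axis (y) of the markers of 4 cell types, with a point for each mouse in its genotype group (x) in order of replicate number and a bar for the mean ± SD, cut at 0. The zQ175 mouse at 621 CPM of thalamic markers is replicate 1, which is also the lowest for projection neuron markers at 1098 CPM, and the zQ175 mouse at 326 CPM of cortical markers is replicate 5.

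The knock-in could be compared a further time in mice with a single CK2α’ allele, where the 5 zQ175:CK2α’(±) and 3 CK2α’(±) mice share no library with the first comparison. Here the phosphatase inhibitors other than ENSA had the largest negative fold changes of the members, and ARPP-19 fell. Arpp19 was the 1 member that passed, where 0.593% of all genes passed. In DESeq2 it was 3 members, where 1.47% of the genes with an adjusted p passed. At an unadjusted p under 0.05 there were 7 members, where 9.19% of all genes were below it. In 6 members the groups did not overlap, where 8.34% of all genes did not.

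Arpp19 was at 275, 307 and 439.5 CPM in CK2α’(±) replicates 1 to 3 and at 185, 169, 184, 201 and 151 CPM in zQ175:CK2α’(±) mice. Every mouse with the knock-in lay below every mouse without it. The log2 fold change was -0.93 (SE 0.225, edgeR FDR = 0.0966), or 0.523-fold. With CK2α’(±) replicate 3 left out it was -0.71 (edgeR FDR = 0.496). The call was lost in 11 of the 18 fits that each leave out a library, the 8 of this comparison among them (edgeR FDR = 0.126 without CK2α’(±) replicate 1 and 0.232 without replicate 2, and 0.150 to 0.194 without any of the 5 zQ175:CK2α’(±) mice), and also without WT replicate 3 (FDR = 0.110), zQ175 replicate 3 (FDR = 0.103) or zQ175 replicate 4 (FDR = 0.115), all by edgeR. With the level of Xist, a transcript of female cells, as covariate the log2 fold change was -0.99 (edgeR FDR = 0.105).

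Ppp1r1b was at 884, 907 and 1481 CPM in CK2α’(±) and at 740.2, 709, 596, 809.9 and 532 CPM in zQ175:CK2α’(±) mice, with no overlap. The log2 fold change of -0.69 (SE 0.233, edgeR FDR = 0.297) did not pass. Ppp1r1a was at 45.7, 35 and 63.9 CPM against 32.2, 32.7, 25.1, 32.6 and 26.3 CPM, again with no overlap, and had a log2 fold change of -0.69 (SE 0.21, edgeR FDR = 0.213, DESeq2 FDR = 0.0929). Arpp21 was at 689, 590.5 and 832 CPM against 514, 502, 487, 550.5 and 419 CPM, also without overlap, with a log2 fold change of -0.51 (SE 0.202, edgeR FDR = 0.417). In each of these genes the highest mouse was CK2α’(±) replicate 3, and without it the log2 fold change was -0.40 for Ppp1r1b, -0.44 for Ppp1r1a and -0.37 for Arpp21. With the test fitted to these 8 mice alone, the adjusted p from edgeR was 0.0301 for Arpp21, 0.0548 for Ppp1r1a, 0.0558 for Ppp1r1b and 0.0678 for Prkacb, and all 4 passed beside Arpp19. In that fit 2.43% of all genes passed, 461 against the 124 of the fit to all mice.

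Prkacb and Prkar1b were the members that did not overlap in the other direction. Prkacb was at 317, 299.7 and 333 CPM in CK2α’(±) and at 389, 365, 400.1, 382 and 384 CPM in zQ175:CK2α’(±) mice, and its log2 fold change was 0.28 (SE 0.0822, edgeR FDR = 0.186, DESeq2 FDR = 0.0583). Prkar1b was at 155 to 174 CPM against 174 to 216 CPM, where the ranges barely cleared each other, with a log2 fold change of 0.24 (SE 0.107, edgeR FDR = 0.501). Prkar2a was at 26.4 to 42.7 CPM against 37.9 to 51.6 CPM, with a log2 fold change of 0.33 (SE 0.139, edgeR FDR = 0.455). With a single library left out it ran from 0.16 without CK2α’(±) replicate 3 to 0.49 without CK2α’(±) replicate 1. The median over the 10 members was -0.08, with 4 higher and 6 lower, beside 0.0041 over all genes tested. Projection neuron markers moved with these values here too, at 2987 to 4115 CPM in CK2α’(±) and 1795 to 2481 CPM in zQ175:CK2α’(±) mice. All 10 of these markers had negative fold changes and 2 passed. The summed oligodendrocyte markers, at 5322 to 6695 CPM against 3748 to 5099 CPM, and interneuron markers, at 210.1 to 237 CPM against 149 to 201 CPM, were also lower with the knock-in and without overlap. Of 5 oligodendrocyte markers 1 passed, Mobp, named after its values were seen (log2 fold change -0.59, edgeR FDR = 0.0989). The summed cortical markers overlapped, at 26.2 to 62.1 CPM and 26.6 to 55 CPM, although 1 of the 6, Neurod2, also named after its values were seen, did not overlap between the groups (log2 fold change 3.25, edgeR FDR = 0.145, DESeq2 FDR = 0.0296). The part of these markers in the members’ values was not tested.

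**Figure D3:**
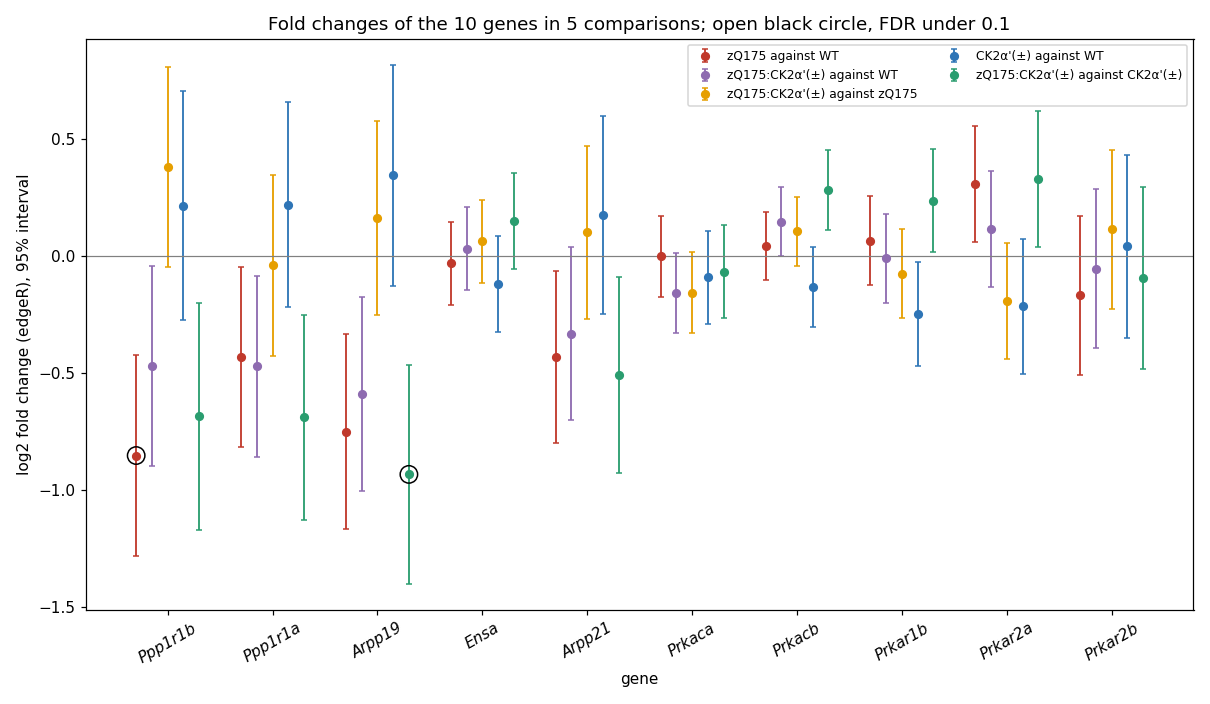
Log2 fold change from edgeR with its 95% interval (y) for each of the 10 genes (x) in 5 comparisons, marked by colour, with an open black circle where the FDR was under 0.1. The circles are on Ppp1r1b in zQ175 against WT mice, at -0.85, and on Arpp19 in zQ175:CK2α’(±) against CK2α’(±) mice, at -0.93.

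Against WT mice, zQ175:CK2α’(±) mice had negative fold changes in the same inhibitors, and none passed. Of the 10 members 0 passed in edgeR and 0 in DESeq2, where 0.0143% of all genes passed in edgeR and 0.725% of those with an adjusted p in DESeq2. At an unadjusted p under 0.05 there were 4 members, where 9.13% of all genes did. No member separated the groups, which 1.84% of all genes did. The log2 fold change was -0.59 for Arpp19 (SE 0.2, edgeR FDR = 0.392), -0.47 for Ppp1r1b (SE 0.206, edgeR FDR = 0.495), -0.47 for Ppp1r1a (SE 0.186, edgeR FDR = 0.443) and 0.15 for Prkacb (SE 0.0706, edgeR FDR = 0.546). This comparison and that of zQ175 mice share the 5 WT mice. The mean of Ppp1r1b was 677 ± 112 CPM (SD, n = 5) in zQ175:CK2α’(±) mice, which lay between those of zQ175 and WT mice, whereas that of Ppp1r1a, at 29.8 ± 3.76 CPM, was close to its 30.6 ± 8.4 CPM in zQ175 mice. The median log2 fold change of the members was -0.11, beside -0.0087 over all genes. The projection neuron markers had negative fold changes in 10 of 10 genes (median -0.43), with an unadjusted p under 0.05 in 5 and none passing in edgeR or DESeq2. Their sum was 1903 to 4264 CPM in WT and 1795 to 2481 CPM in zQ175:CK2α’(±) mice. The summed oligodendrocyte markers were at 5065 to 7088 CPM against 3748 to 5099 CPM, with an unadjusted p under 0.05 in 3 of 5 genes and none passing in edgeR or DESeq2. The part of these markers in the members’ values was not tested.

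The study’s question concerned zQ175:CK2α’(±) against zQ175 mice. There 0 members passed in edgeR and 0 in DESeq2, where 0.0143% of all genes passed in edgeR and 0.145% of those with an adjusted p in DESeq2. At an unadjusted p under 0.05 there were 0 members, where 6.27% of all genes were below it. In 0 members the groups did not overlap, where 1.14% of all genes did not. Ppp1r1b had the largest difference, a log2 fold change of 0.38 (SE 0.206, 95% interval -0.05 to 0.81, edgeR FDR = 0.830). Without zQ175 replicate 1 its log2 fold change was 0.22, and without both zQ175 replicates 1 and 5 it was 0.18. Arpp19 had 0.16 (95% interval -0.25 to 0.58), Arpp21 0.10 (95% interval -0.27 to 0.47) and Ppp1r1a -0.04 (95% interval -0.43 to 0.35), so that increases in Arpp19 and Arpp21 of the size seen for Ppp1r1b lie within their intervals. Without zQ175 replicate 1 the values were 0.05 for Arpp19 and -0.03 for Arpp21. For the catalytic subunits the log2 fold change was -0.16 for Prkaca (95% interval -0.33 to 0.02, and -0.07 without zQ175 replicate 1) and 0.10 for Prkacb (95% interval -0.04 to 0.25). Markers of other cell types moved between these groups. The cortical markers were at 60.9 to 326 CPM in zQ175 and 26.6 to 55 CPM in zQ175:CK2α’(±) mice, without overlap, with negative fold changes in 6 of 6 genes and an unadjusted p under 0.05 in 4 of them. Of 5 oligodendrocyte markers 3, and of 4 microglia markers 3, had an unadjusted p under 0.05, and all 9 of these markers had positive fold changes. All 4 choroid plexus markers had positive fold changes (median 3.21), 3 with an unadjusted p under 0.05, but their sum was high in a single library. The sum was 3064 CPM in zQ175:CK2α’(±) replicate 2 and 11.5 to 16.2 CPM in the other mice of that group. In zQ175 mice it was 11.3 to 21.5 CPM. All 4 thalamic markers had negative fold changes, 1 with an unadjusted p under 0.05, as did both hippocampal granule neuron markers tested, 1 with an unadjusted p under 0.05. No marker of these 6 lists passed in edgeR, and 2 cortical markers and 1 choroid plexus marker did in DESeq2. The projection neuron markers were at 1098 to 2211 CPM and 1795 to 2481 CPM, and 8 of 10 had positive fold changes. The part of these differences in the members’ values was not tested.

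Without the knock-in, the loss of a CK2α’ allele left 0 members passing in edgeR and 0 in DESeq2, where 0.0143% of all genes passed in edgeR and 0.0293% of those with an adjusted p in DESeq2. At an unadjusted p under 0.05 there was 1 member, where 4.48% of all genes were below it. No member separated CK2α’(±) from WT mice, which 3.2% of all genes did. The member below it was Prkar1b, at 171, 155 and 174 CPM in CK2α’(±) mice against 195, 171, 179.7, 204 and 239.8 CPM in WT, a log2 fold change of -0.25 (SE 0.107, edgeR FDR = 0.999). The projection neuron markers had positive fold changes in 10 of 10 genes (median 0.29), with 0 at an unadjusted p under 0.05 and 0 passing in edgeR or DESeq2, and their sum was 1903 to 4264 CPM in WT and 2987 to 4115 CPM in CK2α’(±) mice. Of the markers of the other cell types 0 passed in edgeR or DESeq2, and 2 had an unadjusted p under 0.05, 1 of 6 cortical and 1 of 3 endothelial markers. The part of these markers in the members’ values was not tested. The interaction terms, which ask whether the knock-in acts differently with a single CK2α’ allele, also left 0 members passing in edgeR and 0 in DESeq2, where 0.00478% of all genes passed in edgeR and 0.103% of those with an adjusted p in DESeq2. For Ppp1r1b the interaction was 0.17 on the log2 scale (95% interval -0.49 to 0.82), and with a single library left out it ran from 0.01 without zQ175 replicate 1 to 0.45 without CK2α’(±) replicate 3. For Arpp19 it was -0.18 (95% interval -0.81 to 0.45). Prkacb was the 1 member with an unadjusted p under 0.05, with an interaction of 0.24 (SE 0.108, edgeR FDR = 0.916), where 5.39% of all genes were below it.

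Ratios of related genes within a library do not depend on how libraries are scaled. Of 4 ratios tested in 3 comparisons by exact two-sided permutation tests, with adjustment over the 12, 1 had an adjusted p under 0.1. This was Prkacb over Prkaca, the balance of the catalytic subunits. Per base of exon it was 1.02, 1.13, 0.809, 0.918 and 0.963 in WT mice and 1.18, 1.16, 1.16, 1.35 and 1.13 in zQ175:CK2α’(±) mice. All 5 of the latter lay above all 5 WT mice, WT replicate 2 and zQ175:CK2α’(±) replicate 5 almost touching, and the ratio was 1.24-fold higher (exact permutation p = 0.00794, the smallest that 5 against 5 allow, adjusted p = 0.0952). With any library of these groups left out the adjusted p was between 0.127 and 0.190 in the exact permutation test, and the ratio stayed higher. In 5 against 4 mice even full separation, as the only low p of the 12 tests, cannot reach an adjusted p under 0.1. The loss of the call in these fits therefore does not tell how firm the difference is. In zQ175 mice the same ratio ranged from 0.757 in replicate 1 to 1.24 in replicate 2, which spans every WT value.

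The ratio of Ppp1r1b to Ppp1r1a was 8.93, 12.2, 10.5, 9.76 and 9.12 in WT mice and 6.12, 8.44, 8.72, 9.83 and 5.35 in zQ175 mice. The lowest values were those of zQ175 replicates 1 and 5. It was 0.746-fold in zQ175 mice (exact permutation p = 0.0476, adjusted p = 0.167) and did not pass. In zQ175:CK2α’(±) mice it was 10.1 ± 0.798 (SD, n = 5), which was 1.35-fold higher than in zQ175 mice (exact permutation p = 0.0238, adjusted p = 0.143). Without zQ175 replicate 4 both differences passed (exact permutation adjusted p = 0.0635 for each).

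Arpp19 over Ensa, a ratio of paralogs with the same target, was 2.51 ± 1.16 in WT, 1.47 ± 0.171 in zQ175, 3.32 ± 0.448 in CK2α’(±) and 1.58 ± 0.111 in zQ175:CK2α’(±) mice (SD, n = 5, 5, 3 and 5). The 3 CK2α’(±) mice lay at 2.96 to 3.82, above every mouse with the knock-in, and the WT mice spread from 1.31 to 4.15. The ratio in zQ175 mice was 0.635-fold that in WT mice (exact permutation p = 0.103, adjusted p = 0.248) and did not pass. Prkar2b over Prkar1b had no adjusted p under 0.1 in the 3 comparisons, the lowest being 0.631 (exact permutation test).

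**Figure D4:**
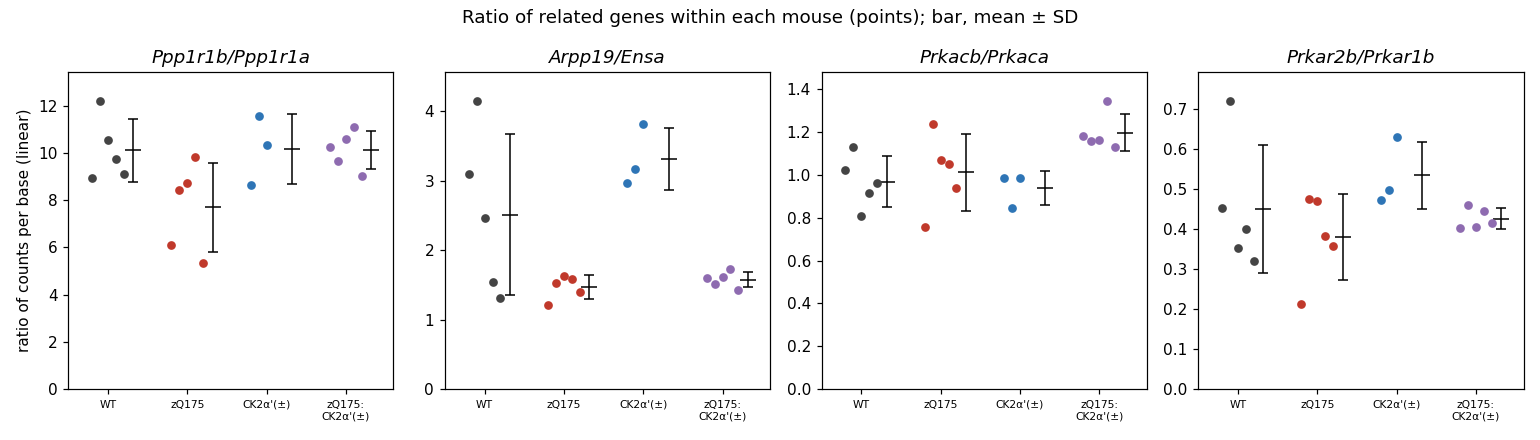
Ratio of counts per base between related genes on a linear axis (y), with a point for each mouse in its genotype group (x) in order of replicate number and a bar for the mean ± SD. In the third panel, Prkacb over Prkaca, all 5 zQ175:CK2α’(±) mice lie at 1.13 or above and the WT mice at 0.809 to 1.13, without overlap.

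Across mice, the members split by whether they followed the projection neuron markers. None of the 10 members is in that marker list. Over the 18 mice, log2 CPM of Arpp21 and of the summed markers had a Pearson r of 0.98 and a Spearman rho of 0.97 (permutation p = 1e-05 for each, the smallest that 100000 permutations can give, adjusted p = 3.33e-05 for r and 5e-05 for rho over 10 relations). For Arpp19, r was 0.96 and rho 0.96, with the same p values. For Ppp1r1b, r was 0.96 and rho 0.91 (permutation adjusted p = 3.33e-05 and 6.67e-05). Ppp1r1a and Prkar2b followed less closely, with r of 0.83 and 0.73 and rho of 0.73 and 0.55, and their adjusted permutation p values were 0.000125 and 0.00194 for r and 0.00222 and 0.0328 for rho.

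The relation of the first 3 genes did not rest on the mice at the ends of the range. Without zQ175 replicate 1 and WT replicate 2, the mice farthest from the median of the marker sum, r was 0.96 for Arpp21, 0.97 for Arpp19 and 0.94 for Ppp1r1b. For Ppp1r1a it was 0.79, while for Prkar2b it dropped to 0.39, so that its relation rests on these mice. Within genotypes, as deviations from each group’s mean, r was 0.98 for Arpp21, 0.94 for Arpp19, 0.95 for Ppp1r1b, 0.72 for Ppp1r1a and 0.79 for Prkar2b. All values come from the same libraries and scaling, so that a change in any abundant gene group enters both axes.

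Other members ran level or in the other direction. Prkar1b had an r of -0.69 and a rho of -0.60 (permutation adjusted p = 0.0026 and 0.0197), and Prkar2a an r of -0.67 and a rho of -0.52 (permutation adjusted p = 0.00516 and 0.0403). Without the same 2 mice r was -0.53 and -0.69, and within genotypes it was -0.56 for Prkar1b and -0.36 for Prkar2a. The permutations did not keep mice within their genotype. Ensa (r -0.02, rho -0.11), Prkacb (r -0.12, rho -0.13) and Prkaca (r -0.46, rho -0.36) had adjusted permutation p values of 0.0715 or more for both measures. Without the same 2 mice r was -0.09 for Prkaca, -0.47 for Prkacb and -0.28 for Ensa. Within genotypes r was -0.71 for Prkaca and 0.52 for Prkacb.

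**Figure D5:**
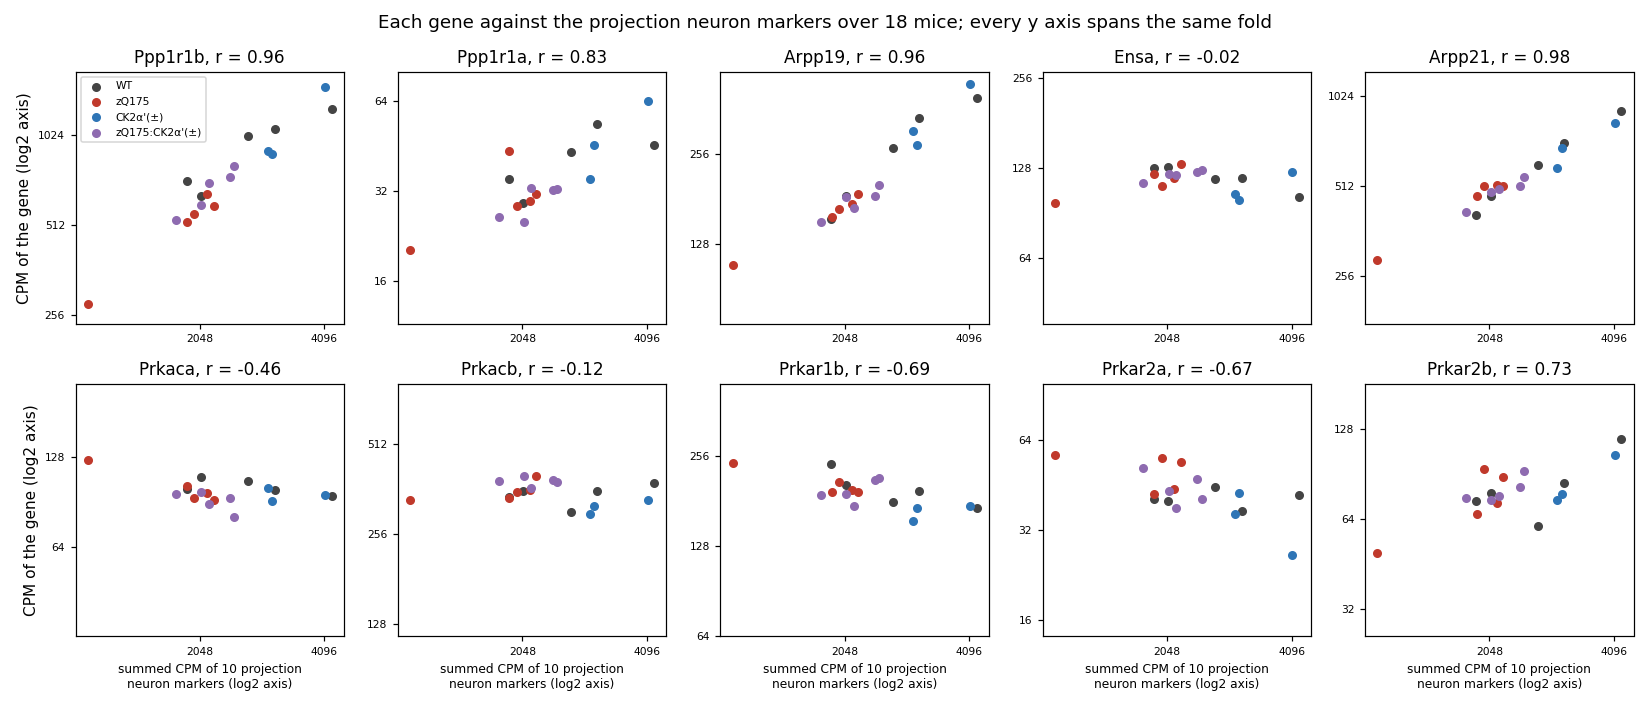
CPM of each gene (y, log2 axis) against the summed CPM of 10 projection neuron markers (x, log2 axis) in 18 mice, coloured by genotype, with Pearson r above each panel. Arpp21, Arpp19 and Ppp1r1b rise along a line on which zQ175 replicate 1 is the lowest mouse, whereas Ensa stays flat and Prkar1b and Prkar2a slope downwards.

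Dividing each gene by the marker sum of its library, a scaling chosen after the values were seen, raises every gene in zQ175 relative to WT mice by about the same amount, since the markers were lower in zQ175 mice. Genes that fell less than the markers therefore come out higher on it. On this scale Ppp1r1b was 0.812-fold, Arpp19 0.918-fold and Arpp21 1.12-fold in zQ175 relative to WT mice, and the other members lay between 1.09-fold for Ppp1r1a and 1.82-fold for Prkar2a. None of the 30 adjusted p values over 10 members and 3 comparisons was under 0.1 (exact permutation tests).

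The tested genes whose pattern over the 18 mice was most like a member’s were then listed. For Ppp1r1b they were Kcnip2 (r 0.97), Penk (r 0.97) and Arhgap10 (r 0.96), and for Arpp19 Pde1b (r 0.98), Penk (r 0.98) and Rgs9 (r 0.97). For Arpp21 they were Drd1 (r 0.98), Gpr6 (r 0.97) and Rgs9 (r 0.97). Penk, Drd1 and Rgs9 are themselves in the projection neuron marker list, so these likenesses restate the relation with the marker sum. Penk, Drd1, Gpr6, Rgs9 and Pde1b encode an opioid precursor, receptors, a G protein regulator and a phosphodiesterase known from projection neurons. For Prkar2b they were Akap5 (r 0.91), which encodes a protein that anchors PKA regulatory subunits at synapses, Efnb2 (r 0.90) and Rarb (r 0.90). Prkaca was most like Stmn1 (r 0.89), Prkacb like Naa25 (r 0.86), Prkar1b like Maged1 (r 0.86), Ensa like Mrpl20 (r 0.86), Ppp1r1a like Camkv (r 0.93) and Prkar2a like Gm44742 (r 0.82). Each was chosen as the highest r among all genes tested and is given as a description.

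Among the members themselves, r of log2 CPM over the 18 mice was 0.95 between Arpp19 and Arpp21, 0.93 between Ppp1r1b and Arpp19 and 0.92 between Ppp1r1b and Arpp21. Ppp1r1b and its relative Ppp1r1a reached 0.85. For the other paralogs no such likeness was seen. It was -0.13 between Arpp19 and Ensa, -0.42 between Prkaca and Prkacb and -0.38 between Prkar2a and Prkar2b. These values describe the 18 mice, with genotype and library scaling shared by all genes.

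The rest of the pathway was read in lists of other genes. Upstream of PKA, all 8 receptors, G protein subunits, cyclase and phosphodiesterases (Drd1, Drd2, Adora2a, Gnal, Gng7, Adcy5, Pde10a and Pde1b) had negative fold changes in zQ175 against WT mice, with a median log2 fold change of -0.61 beside 0.0042 over all genes tested. Of these, 7 had an unadjusted p under 0.05, 1 passed in edgeR and 2 in DESeq2. The gene that passed in edgeR was Adora2a, which encodes an adenosine receptor of indirect pathway neurons, with a log2 fold change of -1.12 (SE 0.246, edgeR FDR = 0.0557) and 108 ± 51.9 CPM in WT against 49.5 ± 10.1 CPM in zQ175 mice (SD, n = 5 each). In zQ175:CK2α’(±) against CK2α’(±) mice, 8 of 8 again had negative fold changes (median -0.73), 2 passed in DESeq2, and 1 passed in edgeR, again Adora2a (log2 fold change -1.21, SE 0.274, edgeR FDR = 0.0733). Of these 8 genes, 3 are also in the projection neuron marker list. In zQ175:CK2α’(±) against WT mice 8 of 8 had negative fold changes (median -0.41), 3 with an unadjusted p under 0.05 and 0 passing in edgeR or DESeq2. A single CK2α’ allele went with positive fold changes in all 8 genes both without the knock-in (CK2α’(±) against WT, median 0.29) and with it (zQ175:CK2α’(±) against zQ175, median 0.20), and in each 0 had an unadjusted p under 0.05 or passed in edgeR or DESeq2. The 8 genes are not independent results, and no fit of them left out a library. The projection neuron markers, which share 3 of them, were at 1098 CPM in zQ175 replicate 1 and 1906 to 2211 CPM in the other zQ175 mice.

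Downstream and beside PKA, no gene of the other lists passed in edgeR between zQ175 and WT mice. There, 0 of 5 other PKA subunit and inhibitor genes passed in edgeR and DESeq2 (median log2 fold change 0.10, 1 with an unadjusted p under 0.05), and 0 of 11 subunits of protein phosphatases 1 and 2A (median -0.03, 1 with an unadjusted p under 0.05). Of 11 A-kinase anchoring genes 0 passed in edgeR and 1 in DESeq2 (median -0.01, 3 with an unadjusted p under 0.05). That gene, named after its values were seen, was Akap13, with a log2 fold change of 0.32 (edgeR FDR = 0.117, DESeq2 FDR = 0.0435) and no overlap between the groups. Of 13 enzymes that phosphorylate or dephosphorylate these proteins 0 passed in edgeR and DESeq2 (median -0.05, 1 with an unadjusted p under 0.05). Of the relatives, R3hdm1 and R3hdm2 of ARPP-21 did not pass in edgeR or DESeq2 (median 0.13, 1 with an unadjusted p under 0.05) and Ppp1r1c had too few counts to be tested. In zQ175:CK2α’(±) against CK2α’(±) mice 0 genes of these 5 lists passed in edgeR and 1 did in DESeq2, with 8 at an unadjusted p under 0.05. Csnk2a2, the deleted gene and one of the kinases in the list, fell in each comparison of mice with a single allele against mice with both, by a log2 fold change of -0.92 in CK2α’(±) against WT mice (SE 0.111, edgeR FDR = 0.000897).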

How the data were processed

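The authors prepared striatal total RNA reads with Trimmomatic, mapped them with HISAT2 2.1.0 (GRCm38), removed reads of low mapping quality and deposited raw counts per gene from Subread 1.6.2, with the summed exon length of each gene in bases as another column. Per the labels, each library is a mouse of the genotype named in its title. Total counts were 13612381 to 22702547 per library, and each member had at least 395 counts in every library.

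Here the deposited counts were tested in R 4.3.3 with edgeR 4.0.16 (TMM, filterByExpr, quasi-likelihood test, all 18 libraries, genotype as the only factor, Benjamini-Hochberg over 20914 genes, FDR 0.1) and, as an alternative, DESeq2 1.42.0. Other alternatives were DESeq2 size factors, no filter, only the groups compared, a replicate block, the Xist level as covariate, FDR 0.05 and each library left out. CPM was TMM-normalized, with a prior count of 2 for log2 CPM. Ratios and values divided by the marker sum used exact permutation tests in scipy, and relations with the marker sum used 100000 random permutations in numpy. The tests were tested on simulated data. Sequences came from the GRCm38 reference with its gene annotation. The 10 members were named by rule, other genes were named where they passed FDR 0.1 in zQ175 against WT mice or were most like a member, Csnk2a2 was named as the deleted gene, Akap13, Mobp and Neurod2 were named after their values were seen, and the members and lists were chosen with earlier results of these data known.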

Additional observations from a re-analysis of the deposited data

Results flagged for a closer look

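Of 54 sets of 5 mice examined, 5 held a mouse whose gap to the nearest of the others, as a share of the group’s range, exceeded Dixon’s 95% critical value of 0.71. Chance gives about 1 in 20 such sets. Choroid plexus markers were not among the sets examined. In zQ175 mice Arpp21 was at 290.4 CPM in replicate 1, against 474 to 517 CPM in the others (share 0.806), and the projection neuron markers summed to 1098 CPM in the same library, against 1906 to 2211 CPM (share 0.726). That library also had 621 CPM of thalamic markers, against 43.7 to 167 CPM in the other zQ175 mice (share 0.786). The cortical markers were at 326 CPM in zQ175 replicate 5, against 60.9 to 95.4 CPM (share 0.870). The ratio of Prkacb to Prkaca was 1.35 in zQ175:CK2α’(±) replicate 4, against 1.13 to 1.18 in the others (share 0.757). What sets these libraries apart was not tested.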

How the results depend on the processing

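Calls among the members lie close to the threshold. In zQ175 against WT mice, where 1 member passed, the count was 2 with DESeq2, 2 without the filter on low counts, 0 with only the groups compared, 0 at FDR 0.05, 0 without both zQ175 replicates 1 and 5, an alternative added after the values were seen, and 0 to 2 with each library left out. Over all genes the count of 230 was 855, 451, 0, 51 and 0 in the first 5 of these, and 0 (without WT replicate 3 or zQ175 replicate 5) to 587 (without WT replicate 2) with each library left out. In zQ175:CK2α’(±) against CK2α’(±) mice, where 1 passed, it was 3 with DESeq2, 3 without the filter, 5 with only the groups compared, 0 with Xist as covariate, 0 at FDR 0.05, 2 without both zQ175 libraries, and 0 to 1 with each library left out. Over all genes the count of 124 was 322, 297, 461, 75, 27 and 222, in the same order, and 6 (without CK2α’(±) replicate 2) to 221 (without WT replicate 2) with each library left out. In zQ175:CK2α’(±) against WT mice it was 1 (Arpp19, edgeR FDR = 0.0985) without the filter, where the count over all genes rose from 3 to 85. Members passing stayed at 0 in the other comparisons under every alternative. The negative direction of Ppp1r1b, Ppp1r1a, Arpp19 and Arpp21 in the knock-in comparisons held in every alternative. The cause of these changes was not tested.

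The labels do not say whether replicate numbers pair these mice. In 24 same-number pairs, r of the deviations from group means ran from -0.14 to 0.12, and 2 were over 0.1. Such values show no strong pairing over all genes, but they cannot tell whether mice of the same number shared a litter or batch. With the replicate block, 0 members passed in zQ175 against WT (98 genes in all) and 0 in zQ175:CK2α’(±) against CK2α’(±) mice (12 in all), and the Prkacb over Prkaca difference of 0.31 on the log2 scale had a p of 0.0625 in the paired exact permutation test, the smallest that 5 pairs allow (adjusted p = 0.375), so this test could not have passed.

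For the ratios, log2 differences with each library left out ran from 0.25 to 0.37 for Prkacb over Prkaca in zQ175:CK2α’(±) against WT, 0.16 to 0.34 against zQ175, and -0.025 to 0.15 in zQ175 against WT mice. For Ppp1r1b over Ppp1r1a they ran from -0.035 to 0.078 in zQ175:CK2α’(±) against WT, 0.31 to 0.53 against zQ175, and -0.52 to -0.30 in zQ175 against WT mice. For Prkar2b over Prkar1b in zQ175:CK2α’(±) against WT mice they ran from -0.12 to 0.17.

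Fold changes that passed kept their sign. Others, none of which had passed, changed it. In zQ175 against WT mice Prkaca was at 0.0011 with DESeq2 and 0.00032 with its size factors. Without both zQ175 replicates 1 and 5, Ensa was at 0.022 and Prkar2b at 0.029 in that comparison, Ppp1r1a at 0.00089, Arpp21 at -0.056 and Prkar2b at -0.081 in zQ175:CK2α’(±) against zQ175 mice, and the interaction was -0.037 for Ppp1r1b, 0.051 for Prkaca and -0.12 for Prkar2b. With Xist as covariate the interaction of Prkar2b was -0.049. With each library left out, the range crossed 0 in zQ175 against WT mice for Ensa (-0.095 to 0.024), Prkaca (-0.087 to 0.025) and Prkacb (-0.015 to 0.067). It did so in zQ175:CK2α’(±) against WT for Ensa (-0.033 to 0.062), Prkar1b (-0.072 to 0.067) and Prkar2b (-0.14 to 0.094), and against zQ175 for Arpp21 (-0.026 to 0.16) and Ppp1r1a (-0.16 to 0.13). In CK2α’(±) against WT mice it did so for Ppp1r1a (-0.035 to 0.41), Ppp1r1b (-0.069 to 0.35) and Prkar2b (-0.13 to 0.21), in zQ175:CK2α’(±) against CK2α’(±) for Prkar2b (-0.19 to 0.077), and in the interaction for Arpp19 (-0.37 to 0.043), Arpp21 (-0.26 to 0.062), Prkaca (-0.10 to 0.022), Prkar2a (-0.15 to 0.19) and Prkar2b (-0.091 to 0.25).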
